A study of Saccharomyces cerevisiae with 8 samples.

Results

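A13 is 1 of 7 aneuploid strains of Saccharomyces cerevisiae (budding yeast whose chromosomes are not all present in the normal number) in a series of 8 arrays. RNA of A13, labelled with Cy5, was hybridised to a 2-colour Agilent array against RNA of a wild-type culture, WT2, labelled with Cy3. The array was chosen by its label, and 6097 of the 6256 genes on it gave a ratio. The background was a second wild-type RNA, WT1, in Cy5 against the same WT2. The other 6 strains were A2, A3, A9, A10, A14 and A15, each on 1 array against WT2. All cultures were grown to mid-log phase and total RNA was taken with acid phenol. The labels give no karyotype, mating type, ploidy or other genotype for A13 or for either wild type, and nothing states that WT1 and WT2 were separate cultures. A13 has 1 array and no replicate, so its ratios have no replicate error, and the WT1 array is the only measure of how 2 wild-type RNAs differ. No dye was swapped. A dye effect common to the arrays therefore stays in each ratio over WT2. It cancels in differences between arrays, such as that between A13 and WT1.

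In an aneuploid yeast cell, an extra copy of a chromosome usually raises the transcripts of most genes on it roughly with the copy number, while genes under strong feedback can depart from it. Superimposed on this are changes that do not depend on where a gene lies, such as those of stress, growth and carbon source. For this reason each ratio is given below on 2 scales: as normalized, and relative to its chromosome, which means after subtraction of the median log2 ratio of that chromosome's genes on the same array. All ratios are log2 of Cy5 over Cy3, so that a value of 1 is 2-fold.

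The A13 array was bright, with a median Cy5 signal of 1070 intensity units against 687 on WT1. Genes well above background made up 95.2% in Cy5 and 93.6% in Cy3. Between the 2 spots of each gene the log2 ratios had an SD of 0.076 on A13 and 0.070 on WT1. A13 also had the most saturated Cy5 spots of the 8 arrays, 101 against 9 on WT1, and the most spots left out as outliers, 212 against 10. Ratios of genes saturated in Cy5 are lower bounds and are named as such. The a-specific, alpha-specific and haploid-specific mating genes, which would differ most between cultures of different mating type, had 0 members past 1.5-fold on A13. The a-specific genes lay between -0.38 (STE6, the a-factor exporter) and 0.20 (ASG7), so A13 and WT2 showed no difference in mating class of the size seen in other strains, where the a-specific median reached -4.35.

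In A13, genes of chromosome I were higher than in wild type as a block, and genes of chromosomes II, VIII, XI and XIII were higher by smaller amounts. The median log2 ratio of chromosome I was 0.59 over 100 genes, which is 1.51-fold over WT2. The median was 0.27 on chromosome II (425 genes), 0.26 on XI (333 genes), 0.23 on VIII (275 genes) and 0.19 on XIII (476 genes). The other 11 chromosomes lay between -0.08 and -0.04. On WT1 the 16 chromosome medians lay between -0.04 and 0.03. Each of the 5 raised medians was above this range, and most of the other 11 were slightly below it.

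**Figure D1:**
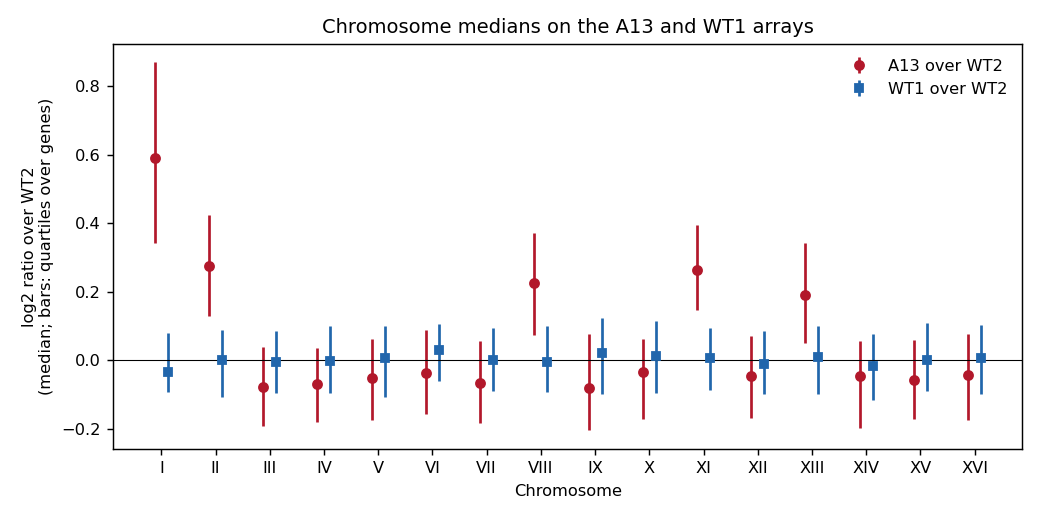
Median log2 ratio over WT2 of the genes of each of the 16 chromosomes (points), with bars from the lower to the upper quartile over genes, for A13 (red circles) and WT1 (blue squares). Chromosome I stands at 0.59 in A13, chromosomes II, VIII, XI and XIII between 0.19 and 0.27, and the rest below 0, while all WT1 medians lie close to 0.

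Because normalization sets the array's centre near 0, the 11 other chromosomes sat slightly below it, at a median of -0.05. Relative to them, chromosome I was 1.56-fold higher, chromosome II 1.25-fold, XI 1.24-fold, VIII 1.21-fold and XIII 1.18-fold. Most genes shared the direction. Above 0 were 95.0% of the genes of chromosome I, 90.4% of XI, 88.5% of II, 83.6% of VIII and 83.6% of XIII, against 36.9% of the genes on the other 11 chromosomes. On WT1 the same 5 chromosomes had between 41.2% (I) and 52.3% (XIII) of genes above 0.

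Dim genes had smaller ratios on chromosome I. Its brighter genes had a median of 0.84 and its dimmer genes 0.35. Relative to the brighter genes of the 11 other chromosomes, those of chromosome I were 1.89-fold higher, those of II 1.30-fold, of XI 1.29-fold, of VIII 1.28-fold and of XIII 1.19-fold. The background correction adds an offset of 50 to each signal, which draws the ratios of dim genes towards 0 by construction.

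Of the 4 smaller shifts in A13, that of II was below the median of the same chromosome in 4 of the 6 other strains. That of XI was below it in 2 of the 6 and that of XIII in 1, and A13 was above the remaining strains. Chromosome II had a median of 0.49 to 0.73 in A2, A3, A9 and A15, against 0.27 in A13. Chromosome XI had 0.64 in both A10 and A15, against 0.26 in A13, and chromosome XIII had 0.70 in A9, against 0.19. Chromosome I had 0.67 in A3, close to the 0.59 of A13. Chromosome VIII had no median above -0.01 in the other 6 strains, and 0.23 in A13. With 1 array against 6, a two-sided exact permutation test cannot go below p = 0.143, so it cannot decide whether A13 differs from the other strains. The 5 chromosomes were also picked by the same A13 medians that such a test ranks. Fewer cells carrying an extra chromosome in a culture and a smaller shift in each cell cannot be told apart in RNA from a whole culture.

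Along their length, the 4 smaller shifts were even. When the genes of each chromosome were divided by order into 8 stretches, the medians in A13 ran from 0.21 to 0.35 on II, from 0.22 to 0.37 on XI, from 0.18 to 0.26 on VIII and from 0.16 to 0.24 on XIII. The left and right arms of chromosome II had medians of 0.28 and 0.27. The arms of XI had 0.28 and 0.25, those of VIII 0.23 and 0.22, and those of XIII 0.18 and 0.19. No stretch of these chromosomes was at the level of the 11 others.

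Chromosome I, the smallest yeast chromosome, was uneven. Its first stretch, from YAL069W at the left end, had a median of 0.22, and its last, from FLO1 to the right end, had 0.23. The 5 stretches from GPB2 to CDC15 had medians from 0.59 to 0.90, and the seventh had 0.42. Strain A3 had medians of 0.26 and 0.35 in the end stretches and up to 1.12 between. The ends held few bright genes, 2 of 13 in the first stretch and 2 of 12 in the last. In the first stretch the 2 bright genes had a median of 0.92, and in the last they had 0.35. The seventh stretch also had 2 bright genes, with a median of 0.94.

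**Figure D2:**
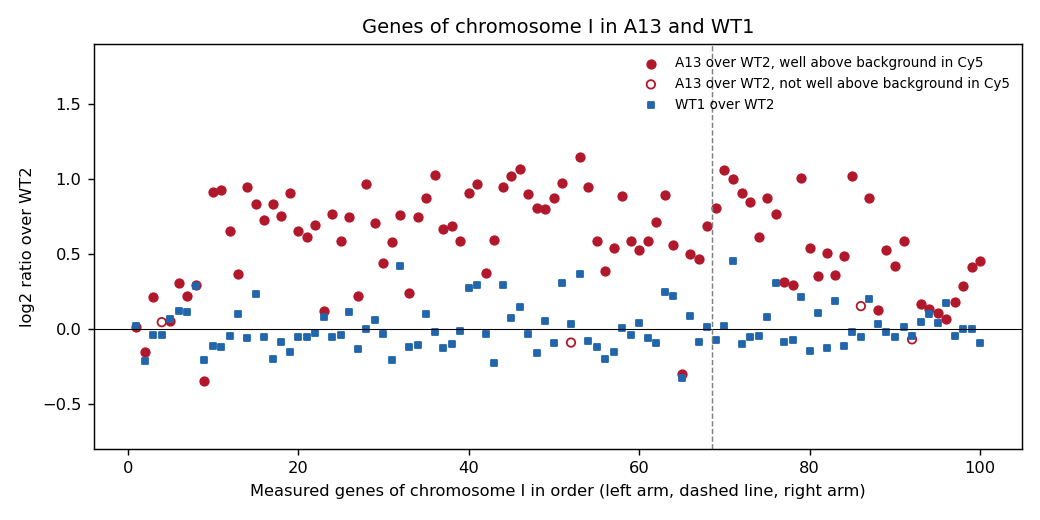
Log2 ratio over WT2 of each of the 100 measured genes of chromosome I in gene order, with the centromere as a dashed line. Filled red points are A13 genes well above background in Cy5, open red points are those that were not, and blue squares are WT1. The A13 points lie mostly between 0.2 and 1.1 and fall towards both ends, while the WT1 points scatter around 0.

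Of the 100 genes of chromosome I, 8 were at least 2-fold higher in A13 as normalized. PSK1, a PAS kinase that links nutrient state to sugar flux, was at 1.15, with both spots above 1.06, against 0.37 on WT1. LTE1, needed for exit from mitosis in the cold, was at 1.07 against 0.14, and SWD1, a subunit of the COMPASS histone methyltransferase, at 1.06 against 0.02. FUN19, of unknown function, was at 1.02 against -0.02 and YAT1, the outer mitochondrial carnitine acetyltransferase, at 1.02 against -0.02. MAK16, a ribosome assembly factor, was at 1.02 against 0.07, UIP3, of the DUP240 family, at 1.01 against 0.21, and RFA1, the largest subunit of replication protein A, at 1.0 against 0.45. All 8 were higher in A13 than in WT1, and RFA1 and PSK1 were already above WT2 on the WT1 array. Relative to the chromosome, the 8 lay between 0.41 and 0.56.

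Other genes of chromosome I lay on both sides of its median of 0.59. CYS3, which makes cysteine from cystathionine, was at 0.89 in A13 and 0.00 on WT1. ADE1, of purine synthesis, was at 0.61 against -0.05, and BDH1, butanediol dehydrogenase, at 0.91 against -0.11. CDC19, the main pyruvate kinase, was at 0.76 against 0.42 and saturated in Cy5, so its ratio is a lower bound. The translation factor gene FUN12 was at 0.87, the ER-to-Golgi transport gene ERV46 at 0.97 and the G1 cyclin gene CLN3 at 0.44. The glutamate dehydrogenase gene GDH3 was at 0.30, against 0.29 on WT1, and the acid phosphatase gene PHO11 at 0.29. A list of 56 genes of chromosome I with a known function had a median of 0.75 as normalized.

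The 5 lowest genes of chromosome I had ratios below 0. BDH2, which lies beside BDH1 and resembles it in sequence, was at -0.35 in A13 against -0.21 on WT1 and -1.56 to 0.53 in the other strains. YAL004W, an open reading frame that overlaps the chaperone gene SSA1 on the other strand, was at -0.30 against -0.33 on WT1, while SSA1 itself was at 0.56 against 0.22. PAU8, of the seripauperin family whose members are near-identical in sequence, was at -0.16 against -0.21. LDS1 (-0.09), a sporulation gene, and YAR061W (-0.07) were not well above background in either channel, so their ratios cannot be read in either direction.

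The 4 other raised chromosomes held their own extremes. On chromosome II the highest gene was PRX1, the mitochondrial peroxiredoxin, at 1.33 as normalized, followed by FIG1 of mating (0.98), the ceramidase gene YPC1 (0.90), YBR287W (0.89) and the maltose permease gene MAL31 (0.88). On chromosome VIII they were ARO9, RPC10, MUP3, a low-affinity methionine permease (0.82), RTC3 (0.80) and YHR138C (0.77). On XI they were HAP4, PTR2, MBR1, PIR1 and YKL162C-A (0.89), and on XIII TSL1, GAD1, HOR7, HXT2 and YMR196W. Lowest on II was AAC3, the anaerobic ADP/ATP carrier (-0.71), and lowest on XI and VIII were the glycolytic genes GPM1 (-0.50) and ENO2 (-0.44), both saturated in Cy5. On XIII YMR013W-A was lowest (-0.53), followed by ADE17 of purine synthesis (-0.46).

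Over all genes, the ratios of A13 were wider than those of WT1. The SD over genes was 0.27 in A13, 0.23 relative to the chromosome, and 0.16 on WT1. As normalized, 26 of 6097 genes were at least 2-fold higher in A13 (0.426%) and 6 were at least 2-fold lower (0.0984%). On WT1 0 genes were past 2-fold higher (0.0%) and 1 was past 2-fold lower (0.0163%). At 1.5-fold, 183 genes were higher in A13 (3.0%) and 45 lower (0.738%), against 6 (0.0979%) and 2 (0.0326%) of 6126 genes on WT1.

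Most of the higher genes lay on the 5 chromosomes named above. The 5 raised chromosomes hold 26.4% of the genes and held 142 (77.6%) of the 183 past 1.5-fold higher, 54 of them on chromosome I. Of the 26 past 2-fold higher, 20 lay on the 5 chromosomes. None of the 6 past 2-fold lower did. Relative to the chromosome, 16 genes were past 2-fold higher (0.262%) and 6 past 2-fold lower (0.0984%). At 1.5-fold these counts were 73 (1.2%) and 48 (0.787%). As A13 minus WT1, which cancels a common dye effect, 14 genes were past 2-fold higher relative to the chromosome (0.23%) and 5 lower (0.082%), and at 1.5-fold 79 were higher (1.3%) and 52 lower (0.853%). Between the scales over WT2, 13 of the higher genes and all 6 lower ones were shared. With median centring in place of loess the split relative to the chromosome turned to 22 higher and 82 lower.

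**Figure D3:**
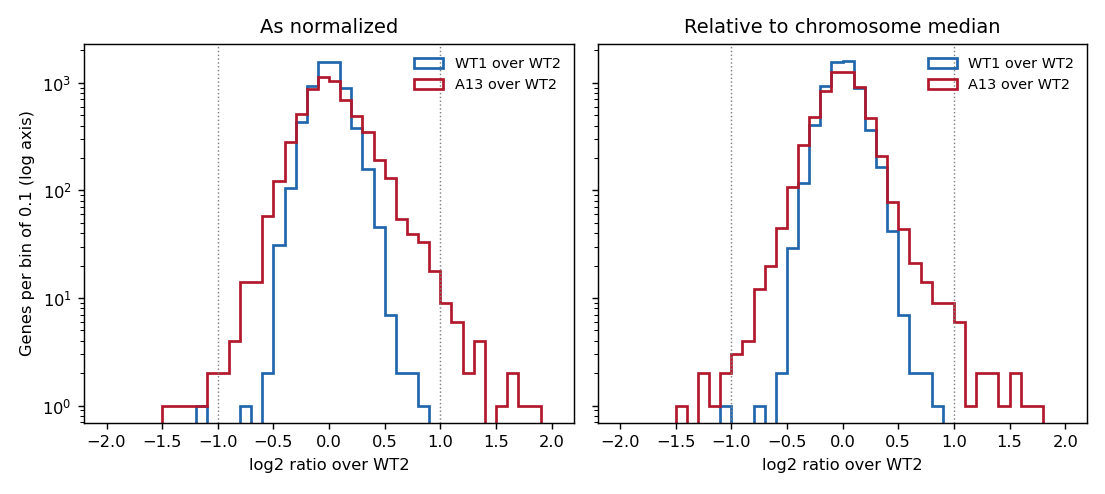
Number of genes (log axis) in bins of log2 ratio over WT2 for A13 (red) and WT1 (blue), as normalized (left) and relative to the chromosome median (right), with dotted lines at 2-fold. The right shoulder of A13 shrinks from 26 to 16 genes past 2-fold when chromosome medians are subtracted, and the lower tail stays at 6.

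On either scale 35 genes were past 2-fold in A13. All 35 were well above background, none was saturated, and none was past 1.5-fold on WT1, where they lay between -0.21 and 0.45. The 2 spots of 34 of them differed by at most 0.20. The exception was RPC10, a small subunit shared by the RNA polymerases. Its 1.59 rested on spots at 2.90 and 0.29 that did not give the same ratio, and it is not used further as a difference.

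Relative to their chromosome, TMA10 and ALD4 had the highest ratios in A13. TMA10, a ribosome-associated protein of stressed cells on chromosome XII, was at 1.73 on one spot and 1.64 on the other as normalized, against -0.02 on WT1. Relative to the chromosome it was at 1.73, and the other strains ranged from -1.02 to 3.94. ALD4, the mitochondrial aldehyde dehydrogenase, was at 1.62 and 1.58 on its spots against -0.08 on WT1, and at 1.66 relative to the chromosome. Both genes were higher than on WT1, and both lay inside the range of the other strains.

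TSL1, a subunit of the trehalose synthase complex on the raised chromosome XIII, was at 1.74 as normalized and 1.55 relative to the chromosome, against 0.05 on WT1. HXK1, hexokinase 1, was at 1.40 relative to the chromosome, GPH1, glycogen phosphorylase, at 1.35, and GAD1, glutamate decarboxylase, at 1.21. HSP12, a membrane-stabilising stress protein, was at 1.18 and HOR7, an osmotic stress gene, at 1.06. These genes were not high in all strains. TSL1, HXK1 and GPH1 were between -1.76 and -0.34 in A2, A3 and A15 and between 1.71 and 3.64 in A9 and A10.

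ARO9 and ARO10 encode the aminotransferase and decarboxylase that break down aromatic amino acids to fusel alcohols. ARO9, on the raised chromosome VIII, was at 1.82 in A13 as normalized and 1.60 relative to the chromosome, with spots at 1.85 and 1.80, against 0.32 on WT1. ARO10, on chromosome IV, was at 1.13 as normalized and 1.20 relative to the chromosome, against 0.30. Both were also higher than in WT2 in A2, A3, A9, A10 and A15, with 0.99 to 1.85 for ARO9 and 1.08 to 1.29 for ARO10, and both were lower than WT2 in A14, at -1.37 and -1.41.

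The other genes past 2-fold higher had varied roles. HXT2, a high-affinity glucose transporter, was at 1.22 as normalized and 1.03 relative to the chromosome, against -0.09 on WT1. PTR2, the peptide transporter, was at 1.11 as normalized and 0.85 relative to the chromosome, against 0.08. HAP4, the activating subunit of the respiration regulator, was at 1.12 and 0.86, and MBR1, linked to mitochondrial function, at 1.05 and 0.78. NCE103, carbonic anhydrase, was at 1.04 relative to the chromosome against -0.19 on WT1, and RGI1, linked to energy metabolism, at 1.04 against 0.30. YIL082W-A, a reading frame of the Ty3 retrotransposon, was at 1.02 against 0.40, and YMR196W at 0.92 against 0.24. PIR1, a cell wall protein, was at 0.77 relative to the chromosome and between 0.62 and 1.13 in the other 6 strains.

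The 6 genes past 2-fold lower came from different processes. RSB1, a transporter of sphingoid bases, was at -1.56 and -1.39 on its spots, a mean of -1.48, against -0.09 on WT1. Relative to the chromosome it was at -1.42, below the -1.19 to 0.13 of the other strains. ANB1, the translation factor eIF5A form made without oxygen, was at -1.33 against 0.07, and at -1.29 relative to the chromosome, where the other strains ranged from -2.89 to 1.24. RPS9A, 1 of 2 genes for a small-subunit ribosomal protein, was at -1.28 against 0.04. ARG1, argininosuccinate synthase, was at -1.18 against -0.10, AHA1, a co-chaperone of Hsp90, at -1.09 against -0.21, and PDR15, a multidrug transporter, at -1.08 against -0.03. Relative to the chromosome AHA1 was at -1.02 in A13 and also below 0 in the other strains, from -1.02 to -0.43. Each of the 6 was lower in A13 than in WT1.

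**Figure D4:**
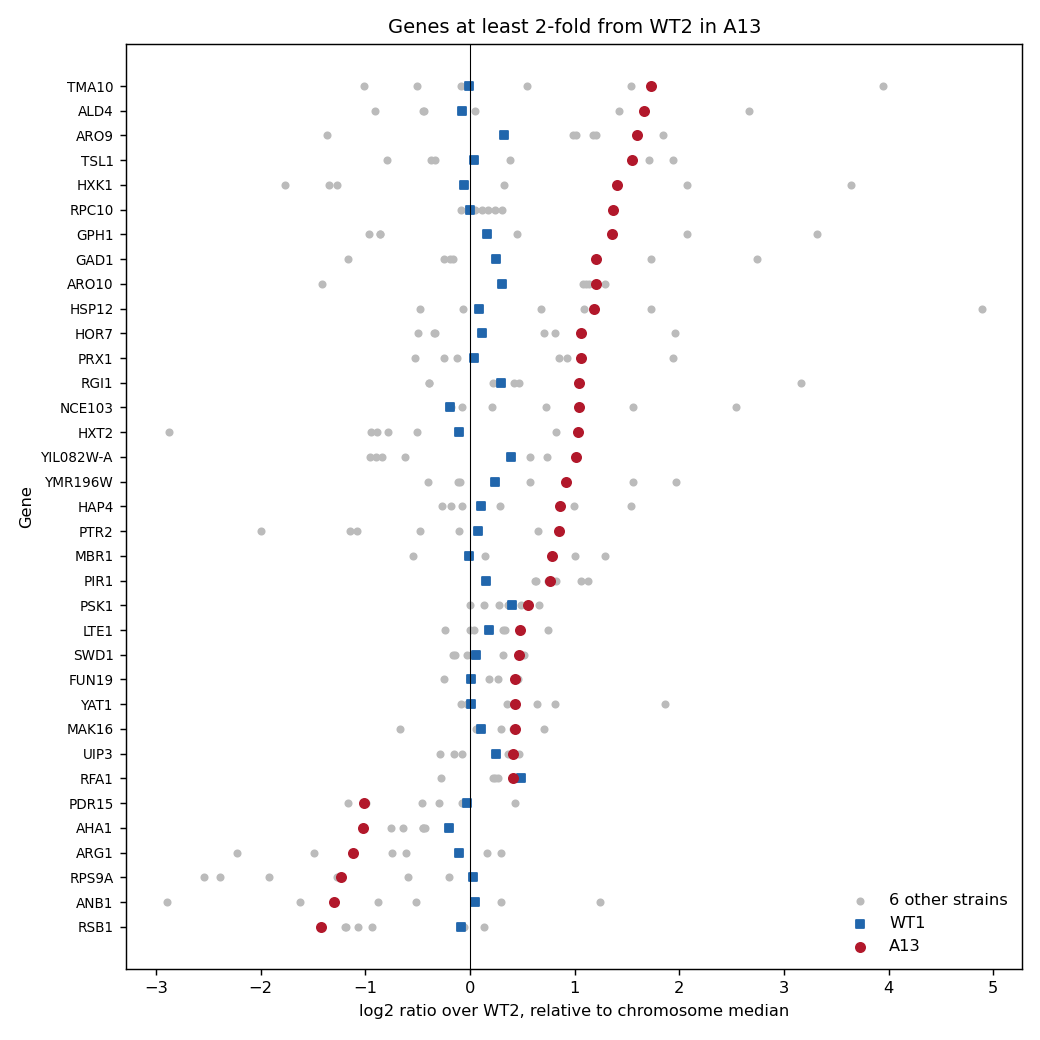
Log2 ratio over WT2 relative to the chromosome median for the 35 genes past 2-fold in A13 on either scale: A13 (red), WT1 (blue squares) and the other 6 strains (grey). A13 lies outside the grey points for few genes, among them HXT2, PTR2 and RSB1, and the 8 genes of chromosome I fall to between 0.41 and 0.56 on this scale.

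Genes of the general stress response, those that the activators Msn2 and Msn4 switch on in many stresses, were mostly higher in A13. Values of this and the following gene lists are relative to the chromosome unless stated. Of 52 genes, 39 were above 0 relative to the chromosome, 12 were past 1.5-fold higher (23.1%, against 1.2% of all genes) and 0 past 1.5-fold lower, against 0 on WT1. Their median was 0.22 in A13 and 0.02 on WT1, and that of all genes was 0.00. In the other strains the median ran from -0.27 (A2) to 1.20 (A10), so A13 was in the middle of the series. TMA10, GAD1, HSP12, HOR7 and PRX1 (1.06) were the highest. AHP1, a thiol peroxidase, was lowest at -0.54, HSP26, a small chaperone, was at 0.22 and CTT1, cytosolic catalase, at 0.42.

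Genes of trehalose and glycogen, the storage carbohydrates of yeast, had a median of 0.35 against 0.06 on WT1. As A13 minus WT1 the median was 0.25. Above 0 were 21 of 22, 5 were past 1.5-fold higher (22.7%, against 1.2% of all genes) and 0 past 1.5-fold lower. TSL1 and GPH1 led, followed by the glycogen branching enzyme gene GLC3 at 0.86 and the glycogen synthase gene GSY1 at 0.62. The other glycogen synthase gene, GSY2, was at 0.97 but also at 0.77 on WT1, so it hardly separated A13 from the second wild type. The core trehalose synthase genes TPS1 (0.23) and TPS2 (0.34) were below 1.5-fold. In the other strains the median of the list ran from -0.37 (A15) to 1.30 (A10).

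Chaperones of the heat shock response were mostly lower. Of 32 genes 24 were below 0 relative to the chromosome, 4 were past 1.5-fold lower (against 0.787% of all genes) and 0 past 1.5-fold higher, and the median was -0.25 in A13 and 0.12 on WT1. AHA1 was at -1.02, CPR6, an Hsp90-bound cyclophilin, at -0.85, BTN2, which sorts misfolded proteins, at -0.82 and HSP82, the inducible Hsp90, at -0.75. On WT1 these 4 were at -0.20, -0.33, 0.27 and 0.20. The Hsp90 partner STI1 was at -0.52, the constitutive Hsp90 gene HSC82 at -0.25 and the disaggregase HSP104 at -0.27, the last against 0.47 on WT1. The ribosome-bound Hsp70 gene SSB2 was highest, at 0.50. In the other strains the median of the list ran from -0.27 to 0.05. In A13 it was -0.15 with median centring in place of loess, -0.18 from the second spot alone and -0.38 as A13 minus WT1.

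**Figure D5:**
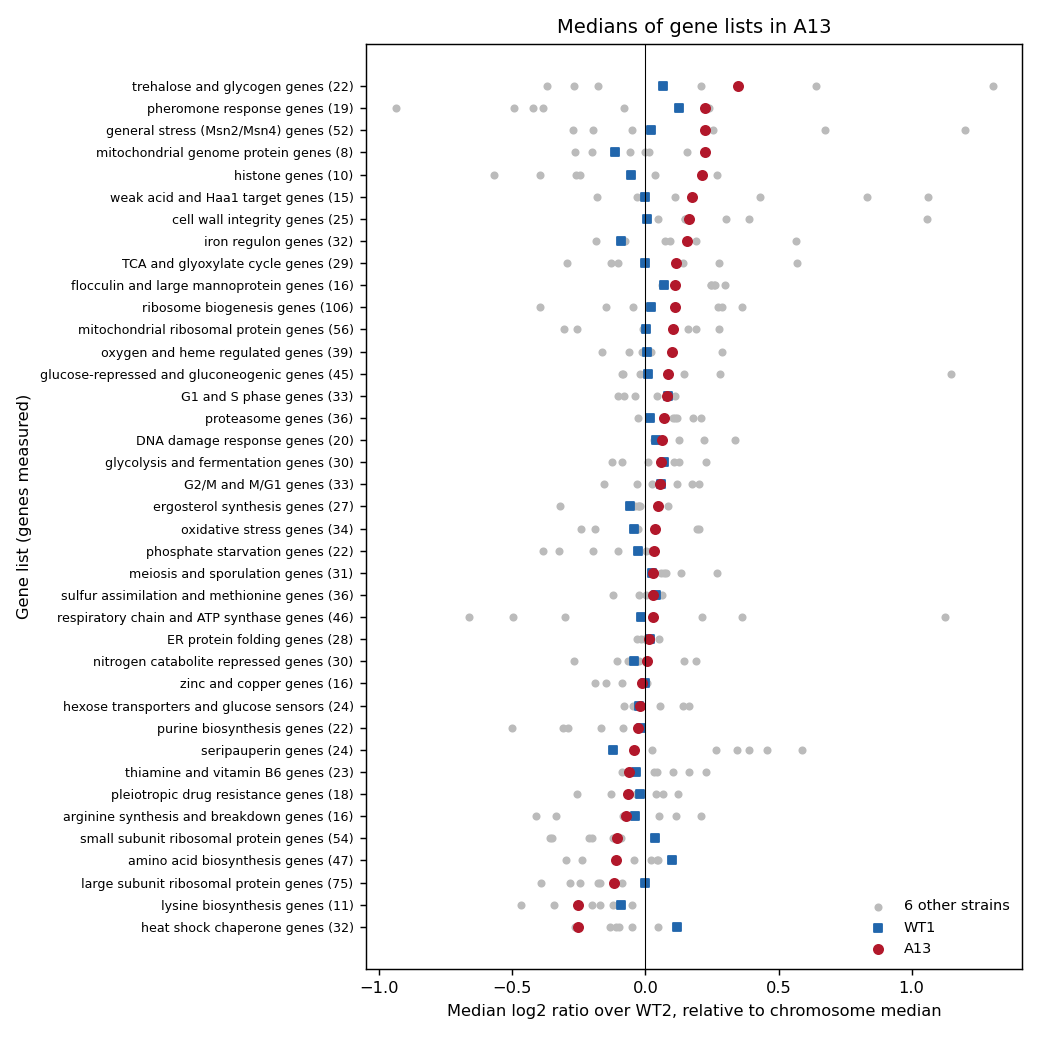
Median log2 ratio over WT2, relative to the chromosome median, of each gene list (number of genes measured in brackets) for A13 (red), WT1 (blue squares) and the other 6 strains (grey). Genes of the mitochondrial genome are shown as normalized, with no median subtracted. Among the lists shown, the highest A13 median is that of trehalose and glycogen genes (0.35), inside the -0.37 to 1.30 of the other strains. The lowest A13 median is that of heat shock chaperone genes (-0.25, other strains -0.27 to 0.05), closely followed by lysine genes (-0.25). Most lists lie within 0.15 of 0. As A13 minus WT1 the trehalose and glycogen median was 0.25 and the heat shock chaperone median -0.38, and the mitochondrial genome list was highest, at 0.43.

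Genes of sugar use lay in both directions. Of 24 hexose transporters and glucose sensors 3 were past 1.5-fold higher (12.5%, against 1.2% of all genes) and 1 lower. The high-affinity transporter genes HXT2 (1.03), HXT7 (1.0) and HXT6 (0.86) were higher. HXT6 and HXT7 are near-identical, so their probes cannot be read as separate genes. The low-affinity transporter genes HXT1 (-0.59) and HXT3 (-0.39) were lower. Of 45 glucose-repressed and gluconeogenic genes 6 were past 1.5-fold higher (13.3%, against 1.2% of all genes) and 0 lower. They were ALD4, HXK1, the glucokinase gene GLK1 (0.98), HAP4, the activator gene ADR1 (0.72) and the lactate dehydrogenase gene CYB2 (0.62). FBP1, fructose-1,6-bisphosphatase of gluconeogenesis, was at -0.34. The median of this list was 0.09, but 0.18 with processed signals and -0.16 with median centring in place of loess.

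Of 30 genes of glycolysis and fermentation 3 were past 1.5-fold higher (HXK1, GLK1 and PYK2, the minor pyruvate kinase, at 0.66) and 3 lower, 10% each way, against 1.2% and 0.787% of all genes. The lower ones were GPM1, phosphoglycerate mutase (-0.76), ENO2, enolase (-0.67), and ADH5, an alcohol dehydrogenase (-0.69). Both spots of GPM1 and ENO2 were saturated in Cy5 on A13, as were those of the phosphoglycerate kinase gene PGK1 (-0.53), so their true ratios may be higher. TDH2, a glyceraldehyde-3-phosphate dehydrogenase gene that was not saturated, was at -0.50, and TYE7, an activator of glycolytic genes, was at -0.69 against 0.11 on WT1.

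Few respiratory genes were past 1.5-fold. Of 29 genes of the TCA and glyoxylate cycles 0 were past 1.5-fold, with a median of 0.12, and of 46 of the respiratory chain and ATP synthase 1 was, HAP4 (a regulator), with a median of 0.03. No chromosome median was subtracted from genes of the mitochondrial genome, so their values here are as normalized. The 8 protein genes of the mitochondrial genome had a median of 0.22 against -0.12 on WT1. That median was 0.48 with processed signals, 0.47 with the authors' deposited values, 0.06 with median centring and 0.43 as A13 minus WT1. COB, cytochrome b, was at 0.69 and OLI1, an ATP synthase subunit, at -0.26. All 18 mitochondrial genes had a median of 0.21, with 14 above 0, against -0.03 on WT1. Of 39 genes set by oxygen and heme, 22 were above 0 relative to the chromosome, with a median of 0.10 against 0.01 on WT1. CYC7, the minor cytochrome c, was at 0.92. ANB1 (-1.29), AAC3 (-0.99) and TIR3, a wall mannoprotein (-0.62), were the 3 past 1.5-fold lower (7.69%, against 0.787% of all genes).

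Few ribosomal protein genes were past 1.5-fold. Of 75 large-subunit genes 54 were below 0, with a median of -0.12 and 0 past 1.5-fold. Of 54 small-subunit genes 39 were below 0, with a median of -0.11, and 2 were past 1.5-fold lower (against 0.787% of all genes), RPS9A (-1.23) and RPS2 (-0.64), the latter saturated in Cy5. With median centring in place of loess both medians were above 0, at 0.01 and 0.02. RPS9B, which makes the same protein as RPS9A, was at -0.49 and saturated. Many of these genes come in near-identical pairs, which the probes may not separate. Of 106 ribosome biogenesis genes 80 were above 0, with a median of 0.11 and 0 past 1.5-fold.

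Amino acid genes were mostly below 0. Of 47 biosynthetic genes 33 were below 0, with a median of -0.11 against 0.10 on WT1, and 1 was past 1.5-fold higher, SER3 of serine synthesis (0.75). With median centring in place of loess the median was 0.0006. LEU1 of leucine synthesis was at -0.50 in A13 and 0.49 on WT1, and HIS4 of histidine synthesis at -0.48 and 0.35, so part of their separation came from WT1. Of 11 lysine genes 9 were below 0, with a median of -0.25 against -0.09, among them LYS9 (-0.50). The lysine median was -0.10 with median centring and -0.14 as A13 minus WT1. Of 16 arginine genes ARG1 was the 1 past 1.5-fold lower, with ARG3 at -0.52.

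Of 32 genes of the iron regulon 25 were above 0, 3 were past 1.5-fold higher (9.38%, against 1.2% of all genes) and 0 lower. The median was 0.15 against -0.09 on WT1, and 0.27 as A13 minus WT1. SIT1, a siderophore transporter, was at 0.90 against -0.37 on WT1, FRE1, a surface reductase, at 0.66 against -0.10, and FTR1, the iron permease, at 0.60 against -0.21. Of 25 cell wall integrity genes 3 were past 1.5-fold higher (12%, against 1.2% of all genes): GSC2, the stress-induced glucan synthase (0.94), PIR1 (0.77) and SED1, an abundant wall protein (0.65). Of 19 pheromone response genes FIG2 (0.77), FIG1 (0.70) and PRM2 (0.69) were past 1.5-fold higher (15.8%, against 1.2% of all genes), with a median of 0.22 in A13 and 0.12 on WT1. That median was 0.05 with median centring, 0.09 from the second spot alone and 0.12 as A13 minus WT1. Of 18 genes of pleiotropic drug resistance RSB1 and PDR15 were past 1.5-fold lower (11.1%, against 0.787% of all genes), the drug pump gene PDR5 was at -0.43, the weak acid pump gene PDR12 at -0.52 and PDR10 at 0.40.

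The difference between A13 and WT1 was tested with limma across all 6097 genes relative to their chromosome, with the spread taken from the other 6 strains. These are different strains and not replicates, so differences between them counted as error, and a lack of calls says little about A13. With Benjamini-Hochberg adjustment no gene was called, and the share of genes with an unadjusted p under 0.05 was itself below 0.05. Genes of smallest p are therefore named by rule only and do not stand out by this test. The gene of smallest p was RPC10, whose spots disagreed. HSP82 followed among the lower genes, with a difference of -0.95 (SE 0.29, adjusted p = 1.0 in limma). AHA1 was also among the 10 genes of smallest p, with a difference of -0.82 (SE 0.32). ISA1, of iron-sulfur assembly, was in this group because WT1 was at -1.09, with A13 at -0.08.

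Against the mean of the other 6 strains limma also called no gene, and again the share of genes with an unadjusted p under 0.05 was below 0.05. Among the genes of smallest p, which are named by rule only, A13 stayed near wild type where the other strains did not. PGU1, a pectin-degrading enzyme, was at 0.31 in A13 and 0.12 on WT1, and between -0.83 and -0.48 in the others. ALD6, the cytosolic aldehyde dehydrogenase, was at 0.20 and 0.17, against -0.88 to -0.21. KTR5, a putative mannosyltransferase, was at -0.12 and -0.17, against 0.33 to 0.59. In 2 further genes A13 was below both. SOM1, of mitochondrial protein processing, was at -0.72 against -0.06 on WT1 and 0.19 to 1.19 in the others, and COS12, of a subtelomeric family, was at -0.93 against -0.18 and -0.01 to 2.33.

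Of 6073 genes with a value on all 8 arrays, A13 was above all 6 other strains in 400, below all 6 in 458 and between them in 5215, relative to the chromosome. On average a strain is highest in 1 of 7 genes and lowest in 1 of 7, and A13 was below that share on both sides. Lying outside the other strains therefore does not set A13 apart. Of those outside, 13 were also past 1.5-fold higher than WT2 and 11 past 1.5-fold lower. Besides RPC10 the higher ones included GSC2, at 0.94 against at most 0.39 elsewhere, HXT2, at 1.03 against at most 0.82, PTR2, at 0.85 against at most 0.65, and MUP3, at 0.59 against at most 0.38. The amino acid and proline genes SER3, MMP1 and PUT1 exceeded the others by less than 0.1. Among the lower ones were RSB1, COS12 and SOM1. ENO2 was saturated in Cy5 on A13 and WT1, so its place among the strains cannot be read.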

How the data were processed

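RNA of strain A13 and of WT1, each in Cy5, was compared with WT2 in Cy3, on a slide whose 8 arrays shared 1 scan time. The scanner software was Agilent Feature Extraction, version 10.5.1.1, as the headers state. Median intensity of spot and of local background, deposited without normalization, was the starting point in each channel. Alternatives used the processed intensity, which per the file headers had its background subtracted and dyes normalized, and the log10 ratio that per the file headers was made from it. The authors also deposited log2 values of Cy5 over Cy3, which matched those log10 ratios within 5e-04, with a median of 0. That table has 0 columns of no sample.

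Normexp background correction (offset 50) and loess within each array were run in limma 3.58.1 (R 4.3.3), with weight 0 for 536 control spots and for outlier spots, which were then left out. Saturated spots were kept and the 2 spots of a gene averaged. A gene was kept where 2 or more arrays had it well above background in Cy5 or Cy3. This left 6126 genes, of which 29 had no A13 value. Symbols came from RefSeq's R64 table for 5756 genes. The other 500 kept the file's name. The array follows an older build, so no coordinates are given.

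Nuclear chromosomes with a median of at least 0.15 in size were called raised. Medians were subtracted for the 16 nuclear chromosomes only, and mitochondrial genes kept their normalized ratio. limma's lmFit and eBayes compared A13 with WT1 and with the mean of the other 6 strains, two-sided with Benjamini-Hochberg adjustment at 0.05. The lone A13 and WT1 arrays were assumed to vary like those 6. P-values rest on the spread between different strains, not between replicates. That spread holds differences between the strains and may also be technical. Steps were tested on simulated data.

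Genes were named by rule: those past 2-fold in A13, the 15 highest and lowest relative to WT1, up to 4 per list of the 44 lists, the 5 highest and lowest of each raised chromosome and the 10 of smallest p. Others were chosen after their values were seen. The members, lists and rules were chosen with earlier results of these data known. The general stress list includes CPR1, which entered through an old synonym. The number of arrays limits the precision.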

Additional observations from a re-analysis of the deposited data

How the results depend on the processing

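limma called 0 genes in both contrasts and in each of their 14 alternatives, including leaving out each other strain (range 0 to 0). With 1 array of A13 and no call that could be lost, this says nothing about stability. The number of genes past 2-fold in A13 was 32 as normalized and 22 relative to the chromosome. With Agilent's processed signals it was 148 and 126, with the authors' deposited values 146 and 126, with median centring in place of loess 54 and 104, and at 1.5-fold 228 and 121. WT1 also grew with processed signals, to 19 genes higher and 38 lower. The cause was not tested. The medians of chromosomes I, II, VIII, XI and XIII were 0.79, 0.37, 0.29, 0.33 and 0.24 with processed signals, 0.67, 0.33, 0.29, 0.34 and 0.24 with median centring, and 0.78, 0.36, 0.28, 0.32 and 0.23 with the deposited table. That of chromosome I was 0.66 over genes above background in both channels and 0.63 as A13 minus WT1. No chromosome median that was past 0.15 turned below 0 in these settings. Keeping outlier spots was chosen after seeing the data and left the counts at 32 and 22. Dim genes and Cy5 saturation limit the ratios. No paired analysis was possible because each group has 1 array.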

Other observations

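Relative to the chromosome, 4 of 16 flocculin and large mannoprotein genes were past 1.5-fold higher in A13 (25%, against 1.2% of all genes) and 0 lower: CSS1 (0.98), FIG2 (0.77), SED1 (0.65) and CCW22 (0.62). Of 15 genes of the weak acid response under the activator Haa1, STF2 (0.74) and YGP1, a secreted glycoprotein gene (0.71), were past 1.5-fold higher and TPO2, a polyamine exporter gene (-0.69), was lower. OYE3, an NADPH oxidoreductase gene (0.74), and PRX1 were the 2 of 34 oxidative stress genes past 1.5-fold higher. MMP1 (0.65) and the methionine permease gene MUP3 (0.59) were the 2 of 36 sulfur and methionine genes, and PUT1 of proline breakdown (0.61) was the 1 of 30 nitrogen-repressed genes. ADE17 (-0.65) was the 1 of 22 purine genes past 1.5-fold lower, and PAU8 the 1 of 24 seripauperin genes. Over all genes 1.2% were past 1.5-fold higher and 0.787% lower, and 1 such member is too few to read as a result about its list.

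The 10 histone genes had a median of 0.21 against -0.05 on WT1, with HHF2 at 0.54, HTA2 at 0.44 and 0 past 1.5-fold. The histone median was 0.35 with median centring in place of loess. The 56 mitochondrial ribosomal protein genes had a median of 0.10 and also 0 past 1.5-fold. No member past 1.5-fold was found among the lists of proteasome (36), ER protein folding (28), DNA damage response (20), ergosterol (27), thiamine and vitamin B6 (23), zinc and copper (16), phosphate (22), G1 and S phase (33), G2/M and M/G1 (33) and meiosis and sporulation (31) genes, or among the 8 genes often used as selection markers, with list medians between -0.12 and 0.08. With median centring the meiosis and sporulation median was -0.52, and the cause was not tested. RNR3, a damage-induced ribonucleotide reductase gene, was at -0.43.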
